A study of Mus musculus with 6 samples.

Results

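Apln, the gene of the peptide ligand apelin, and Aplnr, the gene of its receptor, were examined in whole brains of mouse embryos that lack Mfsd7c. Both genes were taken by name from the count table, 2 of 52459 gene symbols, and both were among the 19565 genes that passed the filter on low counts. The pair was chosen by its measured counts in the same contrast, where the ligand was higher and the receptor lower in knockout brains. Their difference between genotypes is therefore given as a description, with no test.

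The data comprised 3 libraries from Mfsd7c-/- knockout embryos and 3 libraries from wild type embryos. All were of the strain C57BL/6 at E14.5, and each library was made from the total RNA of a whole brain. Mfsd7c, now also called Flvcr2, encodes a membrane transporter. The labels do not say whether the embryos came from separate litters or how the gene was deleted, and p-values here reflect only how these 6 samples spread, which may be technical. The question was which transcripts differ between knockout and wild type brains.

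Apelin is made as a longer precursor and is cut by proteases to short active peptides. It acts through Aplnr, a G-protein-coupled receptor of the cell surface that couples to inhibitory G proteins and is then bound by arrestins. In growing vessels the ligand is best known as a product of endothelial tip cells, the leading cells of sprouts, whereas the receptor is known from the endothelium behind them and from veins. Apln is also a known target of hypoxia-inducible factor, the transcription factor that acts when oxygen is low. A second peptide, Apela, also named Elabela or Toddler, binds the same receptor.

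Library depth ran from 43784619 to 50549673 counts. The targeted gene, Mfsd7c, had 119, 129 and 130 counts in knockout replicates 1, 2 and 3, against 206, 291 and 259 counts in wild type replicates 1, 2 and 3, so reads of it remained in each knockout library. The log2 difference, knockout over wild type, came to -0.96 (SE 0.147), with adjusted p = 0.0271 by the quasi-likelihood test of edgeR and Benjamini-Hochberg adjustment. The call was lost without any one of 5 single libraries, where the adjusted p lay between 0.109 (knockout replicate 2 left out) and 0.189 (knockout replicate 3 left out), and held without wild type replicate 1. All 15 embryonic brain markers, among them Sox2 and Dcx, were present in every library, with a summed level of 7323 to 8022 CPM (counts scaled to library size) in knockout and 7269 to 8227 CPM in wild type brains. Of them 1 rose, beside 0.624% of all genes. That count became 0 without any one of 5 single libraries and stayed 1 without wild type replicate 1.

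Apln (ENSMUSG00000037010.7) lies on the minus strand of the X chromosome, chrX:48025146-48034853 in GRCm38, and has 1 annotated transcript of 3149 bases. Aplnr (ENSMUSG00000044338.9) lies on the plus strand of chromosome 2, chr2:85136225-85139923, with 3699 bases of exon. No other gene of the table with a matched position overlapped either of them. Symbols without a matched position were not checked, so shared reads were not tested in full. The start region of Apln, 250 bases before and 50 bases from the annotated start, is chrX:48034804-48035103 in RefSeq on GRCm38.p6. It is shown with those of Adgrl4 (chr3:151437632-151437931, plus strand) and Pgk1 (chrX:106186850-106187149, plus strand), which were among the 5 genes most like Apln across the libraries and were picked because their windows hold the motif described next. All are written 5′ to 3′ on the strand of the gene. In Adgrl4 and Pgk1 capitals mark ACGTG on either strand, the core letters of the binding motif of hypoxia-inducible factor, and in Apln they mark the 50 bases from the start on.
Apln: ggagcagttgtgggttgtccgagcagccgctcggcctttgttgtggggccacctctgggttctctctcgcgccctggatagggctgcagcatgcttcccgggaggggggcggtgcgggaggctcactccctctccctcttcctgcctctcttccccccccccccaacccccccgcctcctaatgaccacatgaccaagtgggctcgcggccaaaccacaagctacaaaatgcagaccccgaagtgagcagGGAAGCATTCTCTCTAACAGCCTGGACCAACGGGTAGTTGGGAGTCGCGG
Adgrl4: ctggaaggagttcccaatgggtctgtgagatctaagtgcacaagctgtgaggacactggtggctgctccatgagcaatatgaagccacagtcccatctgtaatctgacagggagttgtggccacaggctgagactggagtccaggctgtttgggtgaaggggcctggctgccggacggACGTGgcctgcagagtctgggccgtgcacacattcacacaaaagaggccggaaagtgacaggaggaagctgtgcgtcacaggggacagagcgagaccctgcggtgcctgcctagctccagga
Pgk1: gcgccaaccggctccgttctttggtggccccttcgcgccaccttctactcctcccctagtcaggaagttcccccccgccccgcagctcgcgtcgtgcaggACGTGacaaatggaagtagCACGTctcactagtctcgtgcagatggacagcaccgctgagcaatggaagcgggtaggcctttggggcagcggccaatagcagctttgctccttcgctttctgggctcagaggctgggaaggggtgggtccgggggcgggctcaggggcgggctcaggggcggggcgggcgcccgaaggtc

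The core was searched on both strands in its spellings ACGTG and GCGTG, which do not overlap each other. The Apln window held 0 of ACGTG and 0 of GCGTG, the Adgrl4 window 1 of ACGTG and the Pgk1 window 2 of ACGTG. The window of Cd34, the gene most like Apln, also held 0 of either spelling, and the 3 windows of Eno1 each held 0 of ACGTG and 2 of GCGTG. Among all 32851 start regions of this length in the RefSeq table, 19.6% held ACGTG and 43.8% held either spelling. Among the 30 start regions of the hypoxia response list, 50% held ACGTG and 83.3% either spelling, while among 18 start regions of the tip cell markers 5.56% held ACGTG and 66.7% either spelling. A match describes letters only, and its absence from this window says nothing of the rest of the gene.

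The ligand gene was far more abundant in the knockout brains. Apln measured 39.6, 31.8 and 43.1 CPM in knockout replicates 1, 2 and 3, against 8.16, 8.25 and 8.06 CPM in wild type replicates 1, 2 and 3. Every knockout library lay well above every wild type library, and the lowest knockout library was replicate 2. The means were 38.1 ± 5.81 CPM in knockout and 8.16 ± 0.0976 CPM in wild type brains (SD, n = 3 each), a log2 fold change of 2.22 (SE 0.117). The libraries held 1707, 1611 and 2066 counts of Apln in knockout replicates 1, 2 and 3 and 362, 415 and 404 counts in wild type replicates 1, 2 and 3.

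The 2 genotypes also differed in how closely their libraries lay together. For Apln the coefficient of variation was 15.2% between knockout libraries, where counting error alone gives 2.37%, and 1.20% between wild type libraries, where counting error alone gives 5.05%. The wild type values thus lay closer together than counting error would place them on average, and their order cannot be read. Among the 12321 genes with a mean of at least 5 CPM, 5 had a higher log2 fold change than Apln, whose own mean was above that of 57.5% of all genes tested.

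The receptor gene moved the other way and by less. Aplnr measured 18.8, 23.2 and 16.3 CPM in knockout replicates 1, 2 and 3, against 26.4, 35.6 and 29.5 CPM in wild type replicates 1, 2 and 3. The genotypes did not overlap, and the nearest libraries were knockout replicate 2 and wild type replicate 1. The means were 19.4 ± 3.49 CPM in knockout and 30.5 ± 4.67 CPM in wild type brains (SD, n = 3 each), a difference of -36.3% relative to wild type. The log2 fold change was -0.65 (SE 0.148). Among the same 12321 genes, 27 had a lower log2 fold change than Aplnr.

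Both of the 2 genes were free of overlap between the genotypes, as were 14.4% of all genes, 7.84% with knockout higher and 6.58% with knockout lower. The choice of the genes used this same contrast, so nothing is read from this count. In the authors' deposited table the log2 fold changes were 2.23 (SE 0.131) for Apln and -0.65 (SE 0.149) for Aplnr.

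**Figure D1:**
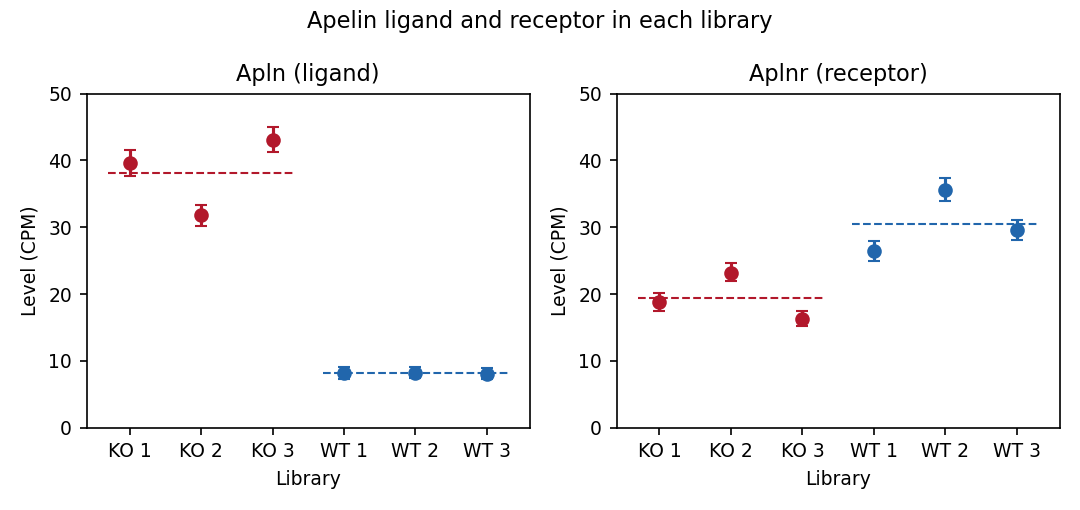
Level of Apln and Aplnr in CPM (vertical axes) in each library (horizontal axes), with 95% exact Poisson intervals for counting error and a dashed line at each group mean; knockout (KO) is red and wild type (WT) blue. Apln was at 31.8 to 43.1 CPM in KO and 8.06 to 8.25 CPM in WT, and Aplnr at 16.3 to 23.2 CPM in KO and 26.4 to 35.6 CPM in WT.

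Per length, the order of ligand and receptor transcripts turned over between the genotypes. On the RPKM scale, which divides CPM by kilobases of exon, Apln stood at 12.1 ± 1.84 and Aplnr at 5.26 ± 0.944 in knockout brains, against 2.59 ± 0.0310 for Apln and 8.25 ± 1.26 for Aplnr in wild type brains (SD, n = 3 each). The ratio of Apln to Aplnr RPKM was 2.48, 1.61 and 3.10 in knockout replicates 1, 2 and 3, against 0.363, 0.272 and 0.321 in wild type replicates 1, 2 and 3. Ligand transcripts outnumbered receptor transcripts in all 3 knockout libraries and in none of the 3 wild type libraries. The mean log2 ratio was 1.21 ± 0.482 in knockout and -1.66 ± 0.208 in wild type brains (SD, n = 3 each), a difference of 2.87.

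Within the knockout libraries the order of the receptor was the reverse of that of the ligand. Knockout replicate 3 had the highest Apln and the lowest Aplnr, and knockout replicate 2 the lowest Apln and the highest Aplnr. Over the 6 libraries Pearson's r of the log2 CPM values was -0.90, and -0.72 after the mean of each genotype was removed. These libraries share their genotype split and their tissue makeup, and 3 libraries a group cannot show whether the order would return.

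A whole brain holds few endothelial cells, and in bulk RNA fewer cells of a type cannot be told apart from less RNA per cell. Both genes were therefore also set against 20 pan-endothelial markers, among them Pecam1, Cdh5 and Tie1, whose summed level was 548 to 605 CPM in knockout and 416 to 500 CPM in wild type brains. Of these markers 6 rose and 2 fell in edgeR, beside 0.624% of all genes higher and 0.0358% lower. Pecam1 was at 64.7 CPM in knockout and 32.3 CPM in wild type brains, and Cdh5 at 65.5 and 57.5 CPM. The sum is therefore no fixed measure of endothelial cells. Relative to that sum, Apln was at 7.22%, 5.78% and 7.13% in knockout replicates 1, 2 and 3, against 1.96%, 1.65% and 1.65% in wild type replicates 1, 2 and 3. Aplnr was at 3.43%, 4.23% and 2.70% of the sum in knockout replicates 1, 2 and 3, against 6.35%, 7.12% and 6.05% in wild type replicates 1, 2 and 3. Neither gene overlapped between genotypes on this scale. The mean share of Apln was 3.82 times as high in knockout as in wild type brains and that of Aplnr 0.530 times, against 4.68 and 0.637 times in CPM. The higher sum in the knockout libraries, to which the markers that rose contribute, lowers both shares there.

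**Figure D2:**
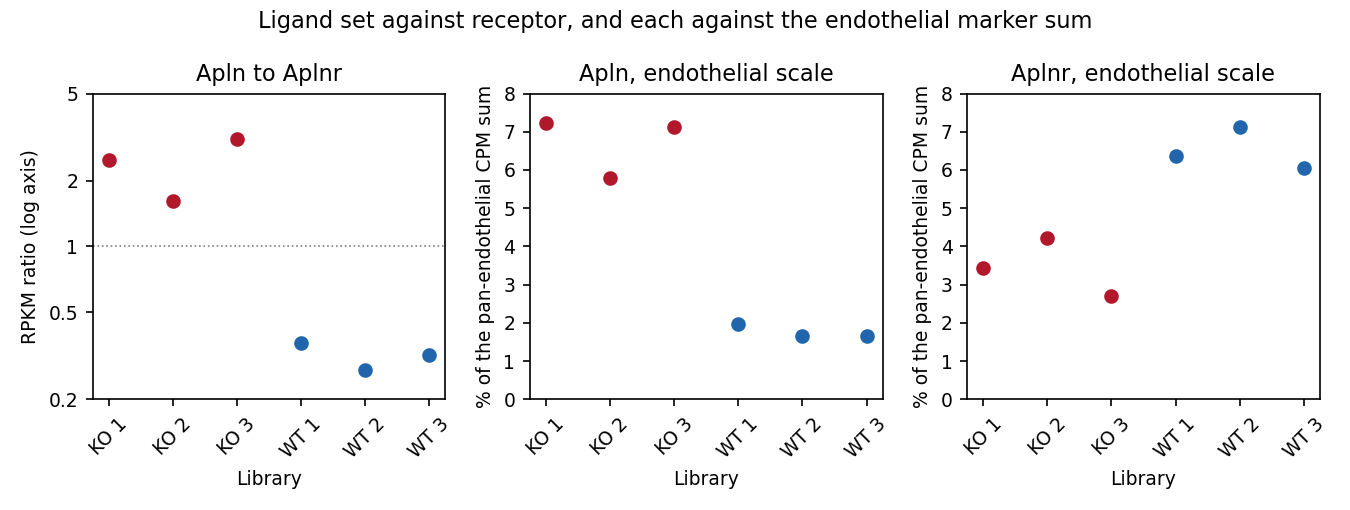
The Apln to Aplnr RPKM ratio on a log axis (left, dotted line at 1), and Apln (middle) and Aplnr (right) as a percentage of the summed CPM of 20 pan-endothelial markers, by library. The ratio was 1.61 to 3.10 in KO (red) and 0.272 to 0.363 in WT (blue), and on the endothelial scale the genotypes did not overlap for either gene.

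Several markers of other tissues and stages differed between libraries. The embryonic forms held 2.80%, 23.6% and 5.03% of all counts of beta-globin genes in knockout replicates 1, 2 and 3, against 4.49%, 23.3% and 26.5% in wild type replicates 1, 2 and 3. Within each genotype the libraries with the high share had the higher Aplnr: replicate 2 among the knockouts, and replicates 2 and 3 among the wild types. The 3 libraries with a low share gave log2 fold changes of 2.35 (SE 0.127) for Apln and -0.58 (SE 0.134) for Aplnr, and the 3 with a high share gave 1.96 (SE 0.102) for Apln and -0.48 (SE 0.0909) for Aplnr. Since the genotypes do not overlap for either gene, the directions in any subset are fixed and only the sizes can be read. In these subsets 1 genotype has a single library, which is assumed to vary like the rest, and the split was chosen after seeing the data.

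The summed level of 11 hindbrain and spinal cord Hox genes was 0.572 to 2.07 CPM in knockout, against 3.07, 95.8 and 28.9 CPM in wild type replicates 1, 2 and 3. Among the wild type libraries Aplnr was likewise lowest in replicate 1 and highest in replicate 2. Without wild type replicates 2 and 3 the log2 fold change of Aplnr was -0.44 (SE 0.184) and that of Apln 2.23 (SE 0.199). Of those 11 genes, 5 passed the filter on low counts, and 0 rose and 0 fell in edgeR. All 5 had an unadjusted p under 0.05 in edgeR, beside 8.09% of all genes, and 2 fell in DESeq2, beside 1.63% of all genes called. When wild type replicate 1 alone was left out, 4 of the 5 fell in edgeR. In that setting 155 of all genes fell, against 7 with all libraries. The part of the tissue makeup in the level of Aplnr was not tested beyond these values. Wild type replicate 2 was the one library with high Xist, at 82198 counts against 6 to 27 in the others, and Apln, which is X-linked, was at 8.25 CPM there, against 8.16 and 8.06 CPM in the other wild type libraries.

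The remaining lists of other cell types overlapped between genotypes, except the mural cell list. Its 12 genes summed to 265 to 317 CPM in knockout and 351 to 371 CPM in wild type brains. Of them 0 rose and 1, the pericyte gene Rgs5, fell, beside 0.624% of all genes higher and 0.0358% lower. Rgs5 measured 39.3 ± 3.80 CPM in knockout against 95.5 ± 10.6 CPM in wild type brains (SD, n = 3 each). When wild type replicate 1 was left out, 2 of the mural genes fell, while 155 of all genes fell there, against 7 with all libraries. Summed levels were 170 to 202 CPM in knockout and 157 to 172 CPM in wild type brains for 12 microglia and macrophage genes, 1793 to 3624 CPM in knockout and 1172 to 2492 CPM in wild type brains for 12 erythroid genes, and 33.1 to 540 CPM in knockout and 26.5 to 460 CPM in wild type brains for 10 epidermal genes. They were 1065 to 1312 CPM in knockout and 906 to 1775 CPM in wild type brains for 10 meningeal and fibroblast genes, and 2.00 to 8.83 CPM in knockout and 2.77 to 22.2 CPM in wild type brains for 9 muscle genes. Of these 5 lists 0 members rose and 0 fell in the edgeR test, beside 0.659% of all genes called. At an unadjusted p under 0.05 in edgeR there was 1 member, an erythroid gene, beside 8.09% of all genes. DESeq2 and limma-voom called 0, beside 1.63% and 0.603% of all genes. Lists this short would hold few calls at these shares, so the counts do not show that these cell types were unchanged. Of the meningeal and fibroblast genes 1 rose when wild type replicate 1 was left out, and 3 rose when both replicates 1 were. Over all genes 233 and 265 rose in these settings, against 122 with all libraries. None of the pan-endothelial markers was at 0 in any library. Whether these cell types have a part in the levels of Apln and Aplnr was not tested.

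The other genes of the pathway showed no difference of the size seen in Apln. Of 47 listed genes besides the pair, 44 passed the filter on low counts, and 0 rose and 0 fell in the edgeR test, while 0.659% of all genes passed. Their median log2 fold change was 0.04, against -0.01 over all genes, and they ran from -0.88 to 0.32. At an unadjusted p under 0.05 there were 7 of the 44, 3 higher and 4 lower, beside 8.09% of all genes. The genotypes did not overlap for 12 of the 44, beside 14.4% of all genes. In DESeq2 1 rose and 2 fell, beside 1.63% of all genes called, and limma-voom called 0 of them, beside 0.603% of all genes.

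The second ligand was barely detected. Apela had 18, 12 and 24 counts in knockout replicates 1, 2 and 3, against 16, 20 and 31 counts in wild type replicates 1, 2 and 3, and the genotypes overlapped. Its level was 0.383 ± 0.135 RPKM in knockout and 0.457 ± 0.139 RPKM in wild type brains (SD, n = 3 each). The log2 fold change was -0.26 (SE 0.383, edgeR adjusted p = 0.902), and without wild type replicate 3 its sign turned, to 0.016. Apela lay below Apln in RPKM in all 6 libraries.

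Among the enzymes that cut apelin, Furin, a protease of precursor proteins, measured 35.6, 33.1 and 34.4 CPM in knockout replicates 1, 2 and 3, against 36.2, 34.6 and 33.3 CPM in wild type replicates 1, 2 and 3. The breakdown enzymes Mme, also named neprilysin, and Prcp also overlapped between genotypes, at 11.6 ± 0.811 and 19.6 ± 1.06 CPM in knockout and 11.2 ± 2.14 and 20.0 ± 1.59 CPM in wild type brains (SD, n = 3 each). Klkb1 did not pass the filter on low counts.

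Of the 7 G-protein alpha subunits coupled to the receptor, Gna13, which acts on the cytoskeleton, came nearest to the threshold. It measured 79.3, 72.1 and 81.0 CPM in knockout replicates 1, 2 and 3, against 64.1, 60.5 and 61.0 CPM in wild type replicates 1, 2 and 3, with no overlap. Its log2 fold change of 0.32 (SE 0.0617) missed the threshold in edgeR (adjusted p = 0.0795) and passed it without wild type replicate 1 (adjusted p = 0.0245) and in DESeq2 (adjusted p = 0.00244). The inhibitory subunits Gnai1, Gnai2 and Gnai3 had log2 fold changes of 0.19, 0.12 and 0.08, none past the threshold.

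Of 6 receptor kinases and arrestins, 1 had an unadjusted p under 0.05 in edgeR, beside 8.09% of all genes. Arrb2, a beta-arrestin that binds activated receptors, was at 55.8 ± 3.27 CPM in knockout and 63.0 ± 4.10 CPM in wild type brains (SD, n = 3 each), a log2 fold change of -0.18 (SE 0.0716) with edgeR adjusted p = 0.574. Of the 4 measured receptor partners and 9 kinases of the pathway, 0 had an unadjusted p under 0.05, beside the same share of all genes. These lists are too short for their counts to be told from that share. Agtr1b and Bdkrb1 did not pass the filter on low counts.

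Among the transcription factors and targets of the pathway, 5 of 13 genes had an unadjusted p under 0.05 in edgeR, beside 8.09% of all genes. Klf2, a transcription factor of quiescent endothelium, measured 6.19, 6.53 and 4.86 CPM in knockout replicates 1, 2 and 3, against 8.03, 9.45 and 9.90 CPM in wild type replicates 1, 2 and 3. The genotypes did not overlap, and the log2 fold change of -0.64 (SE 0.147) was close to that of Aplnr. It missed the threshold in edgeR (adjusted p = 0.171), and passed it without wild type replicate 1 (adjusted p = 0.0383) and in DESeq2 (adjusted p = 0.00727).

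The connexin genes Gja4 and Gja5, gap junction proteins of arterial endothelium, did not pass the test in edgeR. Both were also lower in each knockout library than in each wild type library, as were 6.58% of all genes. The arterial list did not move as one. At an unadjusted p under 0.05 in edgeR 3 of its 12 genes were higher and 2, these connexin genes, lower, beside 8.09% of all genes. Log2 fold changes of the list ran from -0.88 to 0.53, with a median of 0.07. Its summed level was 375 to 430 CPM in knockout and 359 to 360 CPM in wild type brains. Efnb2 alone had a mean of 187 CPM in knockout and 166 CPM in wild type brains, and how much of the sum comes from arteries was not tested. Gja4 measured 4.36, 6.94 and 6.53 CPM in knockout replicates 1, 2 and 3, against 8.61, 9.71 and 9.64 CPM in wild type replicates 1, 2 and 3 (log2 fold change -0.65, SE 0.175, edgeR adjusted p = 0.282). Gja5 measured 1.07, 2.07 and 2.00 CPM in knockout replicates 1, 2 and 3, against 2.16, 3.52 and 3.79 CPM in wild type replicates 1, 2 and 3 (log2 fold change -0.88, SE 0.304, edgeR adjusted p = 0.478). DESeq2 called Gja4 (adjusted p = 0.0319). Mef2a and Foxo1, transcription factors of endothelium and muscle, had log2 fold changes of 0.16 (SE 0.0487) and 0.22 (SE 0.0782), with edgeR adjusted p = 0.352 and 0.480.

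**Figure D3:**
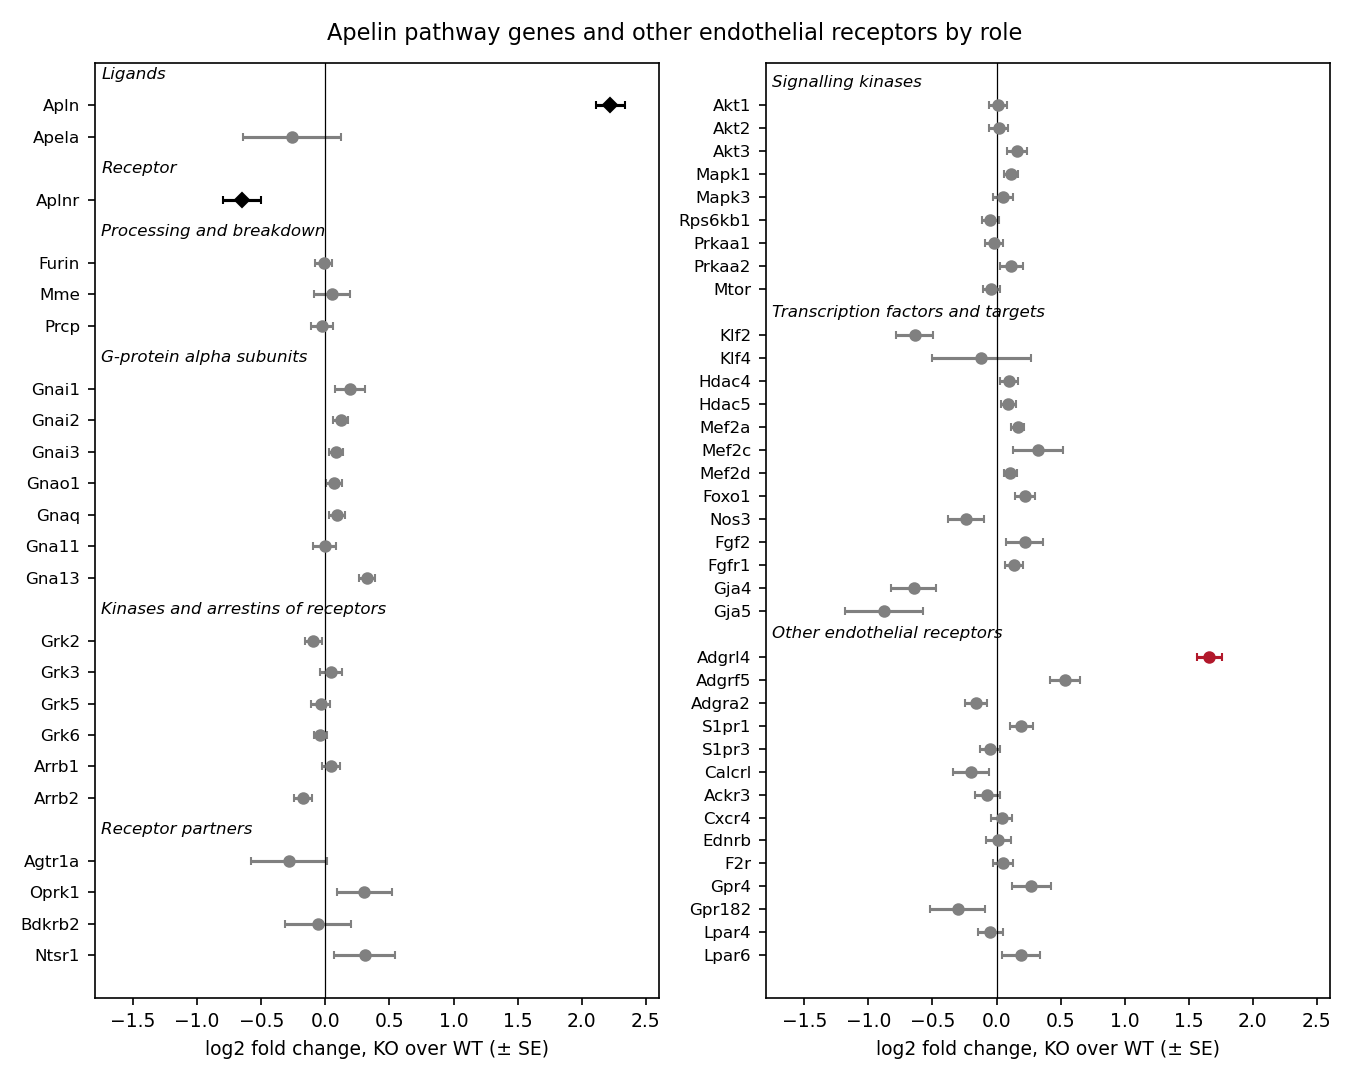
Log2 fold change of KO over WT with its SE (horizontal axes) for the apelin pathway genes reported by name, by role, and for 14 other endothelial receptors; black diamonds are Apln and Aplnr, red marks a gene past an FDR of 0.05 in edgeR and grey one that was not. Apln stands at 2.22 and Aplnr at -0.65, and Adgrl4 is the one red point.

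Aplnr was then set among 14 other G-protein-coupled receptors of endothelium. The levels are those of whole brains, and how much of each receptor's RNA comes from endothelium was not tested. Its log2 fold change of -0.65 was the lowest of the 15, followed by Gpr182 at -0.30. Of the 14, 1 rose and 0 fell in edgeR, beside 0.624% of all genes higher and 0.0358% lower, and their median log2 fold change was 0.03. Adgrl4, an adhesion receptor of angiogenic endothelium, measured 40.4, 33.6 and 42.3 CPM in knockout replicates 1, 2 and 3, against 12.2, 12.9 and 11.7 CPM in wild type replicates 1, 2 and 3, which on the log2 scale is 1.66 higher (SE 0.0998; adjusted p = 0.000375, edgeR). Its call held without any single library. Adgrf5, another adhesion receptor, stood 0.53 higher on the log2 scale (SE 0.118) and was called by DESeq2 (adjusted p = 0.00381) but not by edgeR (adjusted p = 0.145).

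Per length, Aplnr ranked 8 of the 15 receptors in knockout and 6 of 15 in wild type brains. In knockout brains its 5.26 ± 0.944 RPKM overlapped, within 1 SD, with its neighbours in the order, Adgra2 at 5.81 ± 0.329 RPKM and Adgrf5 at 4.26 ± 0.447 RPKM (SD, n = 3 each). In wild type brains its 8.25 ± 1.26 RPKM likewise overlapped with the chemokine receptor Ackr3 at 8.66 ± 0.853 RPKM and with Adgra2 at 6.48 ± 0.583 RPKM. The order at the top, Ednrb, F2r and Cxcr4, was the same in both genotypes.

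Of the tip cell markers other than Apln, 8 of 19 rose and 0 fell, beside 0.624% of all genes higher and 0.0358% lower, and their median log2 fold change was 0.53. By log2 fold change Apln ranked 5 of the 20, below the potassium channel subunit Kcne3 at 3.60, the peptide Adm at 2.46, the ligand Angpt2 at 2.38 and the proteoglycan Esm1 at 2.37. Kcne3, Angpt2, Esm1 and the sialomucin gene Cd34 kept their calls without any single library. Adm, Plaur, Flt4 and Mcam, the other 4, lost theirs without wild type replicate 2 (edgeR adjusted p = 0.0751, 0.0711, 0.112 and 0.159) or wild type replicate 3 (0.0785, 0.0674, 0.121 and 0.0933). Plaur, Flt4 and Mcam also lost theirs without knockout replicate 1 (0.0543, 0.1004 and 0.179) or knockout replicate 3 (0.0906, 0.139 and 0.317), and Mcam without knockout replicate 2 (0.0808). The 8 thus became 4 without wild type replicate 2 or 3, and 5 without knockout replicate 1 or 3. The tip list includes genes that earlier results had shown to change, so its count is no independent evidence.

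Aplnr is known as a marker of veins, and the members of the venous list did not all move the same way. The summed level of the list was 559 to 590 CPM in knockout and 520 to 544 CPM in wild type brains. Most of it came from Nrp2, Nr2f2 and Flrt2, with means of 212, 160 and 104 CPM in knockout and 191, 161 and 100 CPM in wild type brains. How much of the sum comes from veins was not tested. Of the 8 genes of the list 2 rose and 1 fell, beside 0.624% of all genes higher and 0.0358% lower, and the median log2 fold change was 0.10. At an unadjusted p under 0.05 in edgeR, 3 were higher and 1 lower, beside 8.09% of all genes. Slc38a5, which carries amino acids across membranes, fell to 2.83 ± 0.571 CPM in knockout brains, against 15.9 ± 2.18 CPM in wild type brains (SD, n = 3 each), -2.48 on the log2 scale (SE 0.175; adjusted p = 0.000854, edgeR), and the call held without any single library. The 2 that rose, Vwf and Emcn, were lost without wild type replicate 2 (edgeR adjusted p = 0.0671 and 0.0837), wild type replicate 3 (0.0933 and 0.108), knockout replicate 1 (0.0813 and 0.105) or knockout replicate 3 (0.132 and 0.170), and the Emcn call also when knockout replicate 2 was left out (0.0632).

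Of 12 arterial markers 0 rose and 0 fell in edgeR, beside 0.659% of all genes called. At an unadjusted p under 0.05 there were 5, with Dll4, Hey1 and Acvrl1 higher and Gja4 and Gja5 lower, beside 8.09% of all genes, and DESeq2 called 1, which fell, beside 1.63% of all genes. Of 10 stalk markers 3 rose and 0 fell, beside 0.624% of all genes higher and 0.0358% lower. The number that rose was 1 when either wild type replicate 2 or 3, or either knockout replicate 1 or 3, was left out. Of the 20 pan-endothelial markers 6 rose and 2 fell, beside the same shares of all genes. Mmrn2 at 1.55 (SE 0.114) and Pecam1 at 1.00 (SE 0.0829) on the log2 scale held without any single library. The 2 that fell, Cldn5 and Sox18, were both lost when knockout replicate 1 was left out (edgeR adjusted p = 0.0543 and 0.0559), and likewise for knockout replicate 3 (0.0780 and 0.126) and wild type replicate 2 (0.0685 and 0.0913), and Sox18 also when knockout replicate 2 (0.0629) or wild type replicate 3 (0.0965) was left out. The pan-endothelial counts became 3 higher and 0 lower without wild type replicate 2 or either of knockout replicates 1 and 3, 4 and 1 without knockout replicate 2, and 3 and 1 without wild type replicate 3. Of 20 hypoxia response genes 13 rose and 0 fell, beside 0.624% of all genes higher and 0.0358% lower, with a median log2 fold change of 1.03. Without wild type replicate 2 or 3, 6 rose. The lists share genes, such as Adm in the tip and hypoxia lists, and were chosen with earlier results known. Their counts are therefore no independent evidence.

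The genes whose levels ran most nearly parallel to each member were taken from 13642 named genes with a mean of at least 1 CPM, by Pearson's r of log2 CPM over the 6 libraries. For Apln they were Cd34 (r = 0.999), Adgrl4 (0.999), Pcdh12 (0.997), Pgk1 (0.996) and Eno1 (0.995). Pcdh12 is a protocadherin of endothelium, and Pgk1 and Eno1 are enzymes of glycolysis. After the mean of each genotype was removed the correlations were between 0.915 and 0.948, and these genes too were lowest among the knockouts in replicate 2. In all, 225 genes had r above 0.95, and the points share the genotype split, and such values were therefore not rare.

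These 5 genes differed in size of change. Their log2 fold changes were 1.14 (SE 0.0695) for Cd34, 1.66 (SE 0.0998) for Adgrl4, 0.61 (SE 0.0893) for Pcdh12, 1.10 (SE 0.0864) for Pgk1 and 0.97 (SE 0.0886) for Eno1, all below the 2.22 of Apln. All rose in edgeR, and 4 of the 5 also without any single library. The genes were chosen by their correlation with Apln, which splits by genotype in these same libraries. Their direction and their calls are therefore no independent evidence. Pcdh12 was the exception (edgeR adjusted p = 0.0215 with all libraries), at 0.148 or 0.130 when wild type replicate 2 or 3 was left out and 0.104 or 0.153 when knockout replicate 1 or 3 was.

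For Aplnr the nearest were Snx14 (r = 0.985), Amigo3 (0.981), Bmi1 (0.981), Smg5 (0.980) and Orc6 (0.979), and 44 genes had r above 0.95. None of the 5 passed the test in edgeR, and their log2 fold changes lay between -0.27 for Amigo3 and -0.05 for Snx14, far from the -0.65 of Aplnr. Their pattern over libraries, with knockout replicate 2 highest among the knockouts and wild type replicate 2 highest among the wild types, was like that of Aplnr in shape and smaller in size.

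**Figure D4:**
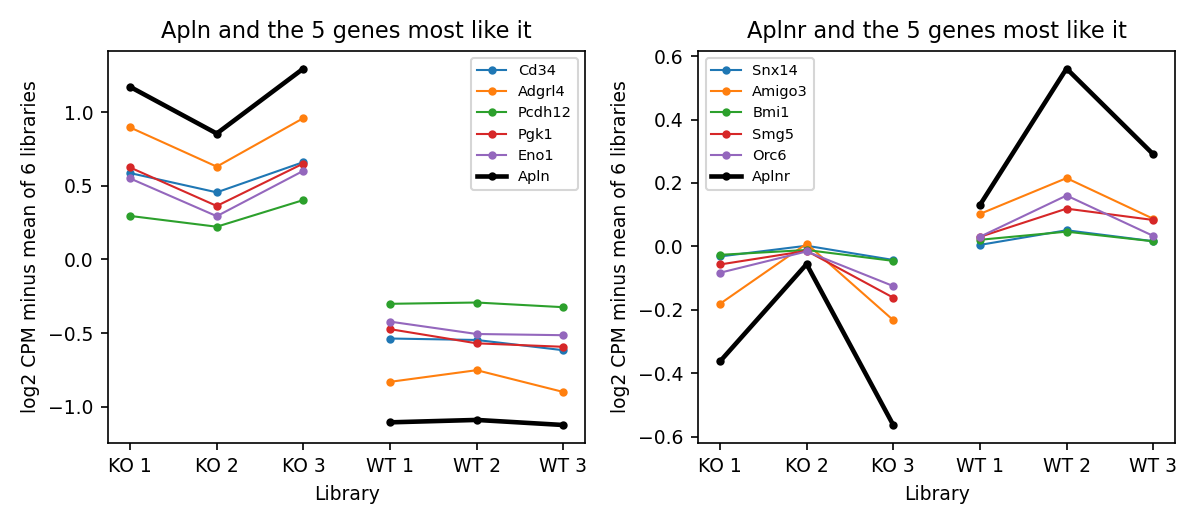
Log2 CPM minus each gene's mean over the 6 libraries (vertical axes), by library, for Apln (left) and Aplnr (right) in black with the 5 genes most like each in colour; lines join the points of a gene within a genotype and replicates have no order. Apln and its 5 genes stand higher in every KO library than in every WT library, and Aplnr spans a wider range than its 5 genes. Since the genes were chosen by correlation with Apln or Aplnr, a shared split by genotype is no separate result.

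No other gene tested within 200 kb of either member passed the threshold. Within 200 kb of Apln 5 genes were tested, with log2 fold changes from -0.28 to 0.16. Of them 0 passed the threshold in edgeR and 0 had an unadjusted p under 0.05, beside 0.659% and 8.09% of all genes. Its nearest tested neighbours, Ocrl and Xpnpep2, had log2 fold changes of -0.00276 (SE 0.0509) and -0.28 (SE 0.222). Within 200 kb of Aplnr 7 genes were tested, again with 0 past the threshold and 0 at an unadjusted p under 0.05, from -0.35 to 0.20. The nearest, Gm13713 and Lrrc55, had log2 fold changes of 0.20 (SE 0.217) and 0.01 (SE 0.0807).

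Because no library of one genotype overlaps the other for either gene, leaving libraries out can move only the size of the differences. The log2 fold change of Apln lay between 2.13 without knockout replicate 3 and 2.34 without knockout replicate 2 when single libraries were left out. That of Aplnr lay between -0.80 (knockout replicate 2 left out) and -0.52 (wild type replicate 2 left out). Knockout replicate 2, the library with the lowest Apln and the highest Aplnr of its genotype, thus brought both values nearer to 0.

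**Figure D5:**
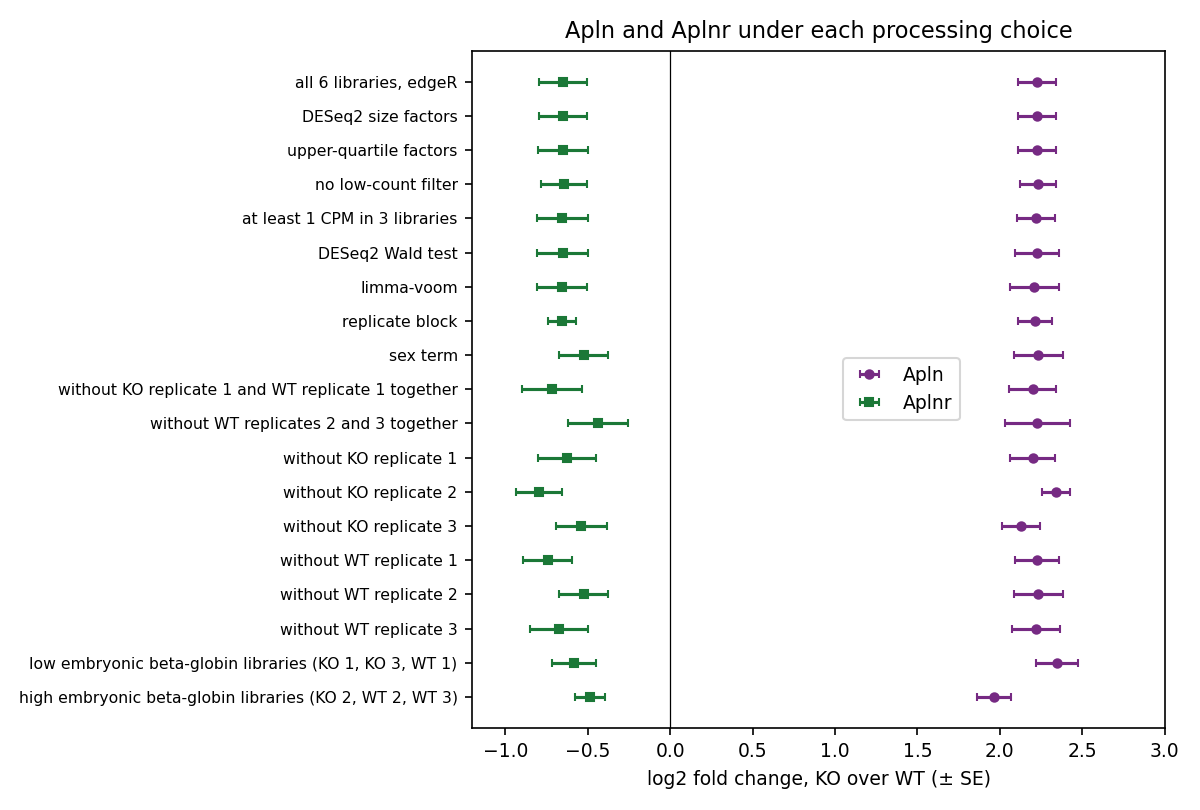
Log2 fold change of KO over WT with its SE for Apln (circles) and Aplnr (squares) under each processing choice (rows). Apln stays between 1.96 and 2.35 and Aplnr between -0.80 and -0.44.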

How the data were processed

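Per the submitters' processing notes, reads were processed with STAR 2.5.2a, featureCounts and DESeq2 1.12.4, and the notes list mm10 and hg19 without a role. Strand setting and gene annotation: not given in the sources used here. Raw counts per gene symbol and library make up the deposited count table, and CPM are counts per scaled library size computed from it. The authors' own comparison holds, per the file headers, a mean normalized signal, log2 fold changes and their standard errors, the Wald statistic as a score, and raw and adjusted p-values.

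From the counts, genes were kept with filterByExpr in edgeR 4.0.16, scaled by TMM and tested, knockout over wild type, with the robust quasi-likelihood test and Benjamini-Hochberg adjustment over all 19565 genes at an FDR of 0.05. CPM uses TMM-scaled library sizes, and RPKM adds the union exon length of GENCODE M21 on GRCm38, to which 48198 of 52459 symbols were matched, 197 through a RefSeq synonym. Log2 CPM used a prior count of 2. The common biological coefficient of variation was 15.3%, so counting error is small beside it for abundant genes and not for Apela. Intervals of 95% cover counting error only.

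The members, the 23 gene lists and the tests were chosen with earlier results of these data known. The naming rule took the pair, the pathway lists, the members of other lists past the threshold and the 2 with the lowest p in each, the 5 genes most like each member and the genes within 200 kb. The receptors set beside Aplnr by level or by fold change, the arterial markers that did not pass, and the markers that illustrate a list, were named after their values were seen. Alternatives were DESeq2 1.42.0 size factors and Wald test, other low-count filters, upper-quartile scaling, limma-voom (limma 3.58.1), a replicate block, a sex term, libraries left out, and other lengths for RPKM. The longest transcript of each member is as long as its union of exons, so that length could not change the ratio of Apln to Aplnr. The sex term marked only wild type replicate 2, so it is close to leaving that library out and is no separate check. Some list members are not reported here by name. Computations ran in R 4.3.3.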

Additional observations from a re-analysis of the deposited data

How the results depend on the processing

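The directions of Apln and Aplnr are fixed by groups that do not overlap, so only sizes are compared here. The log2 fold change of Apln moved by more than the spread between replicates in the high embryonic beta-globin libraries alone, to 1.96, and the difference of Apln and Aplnr to 2.45, a subset chosen after seeing the data. Without single libraries the difference was 2.67 to 3.14. The RPKM ratio of Apln to Aplnr was 2.04 to 2.79 in knockout and 0.296 to 0.342 in wild type brains without single libraries.

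The count of pathway genes, 0 of 44, became 1 without a low-count filter, 1 at an FDR of 0.1, 3 in DESeq2 and 4 without knockout and wild type replicate 1, and was 0 to 2 without single libraries. Of all genes 129 passed, 122 higher and 7 lower. Without a low-count filter 211 passed, 190 and 21, in DESeq2 318, 258 and 60, and with a sex term 37, 34 and 3. Without knockout and wild type replicate 1 459 passed, 265 and 194, and without wild type replicates 2 and 3 20 passed, 16 and 4. Without single libraries 36 to 388 passed, with 33 to 233 higher and 3 to 155 lower. In each case the cause was not tested.

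Replicate numbers were not shown to pair the samples, with deviations correlating at 0.587, 0.310 and 0.0337. With the replicate block 282 genes passed (212 higher, 70 lower), among them 4 pathway genes (Gja5, Gja4, Gna13 and Mef2c), and log2 fold changes were 2.21 for Apln and -0.65 for Aplnr.

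Apela, which had not passed, turned to 0.092 without wild type replicates 2 and 3, and ran from -0.50 to 0.016 without single libraries. Over 35 named genes, 476 comparisons with an alternative kept the direction and the side of the threshold, 65 lost the call and 16 gained it. Depth limits Apela, and 1 count per gene cannot show isoforms.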
